A study of Mus musculus with 9 samples.

Results

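The genes described here are 40 genes of DNA replication and mitosis, chosen by name for their known roles in the cell cycle. The choice was made with earlier results of these data known. A gene's value was the mean of the deposited log2 values of its probe sets, taken over probe sets that name exactly 1 gene. Of the 40 genes, 39 were measured, among 20422 genes in all, and 593 probe sets carried them. Cyclin B1 (Ccnb1) was named by no probe set used here and has no value below. Of the 39 genes, 15 act in S-phase entry and DNA replication and 24 in mitosis.

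A dividing cell first copies its DNA in S phase and then separates the copies in mitosis. E2F transcription factors switch on the replication genes when the retinoblastoma protein releases them. Cdc6 and Cdt1 load the ring of Mcm proteins onto origins, where the ring later opens the helix. Ribonucleotide reductase and thymidylate synthase supply the building blocks, and Pcna clamps the polymerase to DNA. Cdk1 with its cyclins then starts mitosis, in which the Aurora and Polo kinases, the kinetochore and motor proteins of the spindle move the chromosomes. Many mitosis genes are switched on in late cell cycle phases through a promoter element called the cell cycle genes homology region (CHR). In the mammary gland these genes are active in growing ducts and in the alveolar growth of pregnancy, and low in resting or secreting cells.

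Total RNA from 3 mouse cell populations was measured on 9 arrays, 3 per population. ME cells were mammary epithelial cells freshly isolated from mice, whose age the labels of these arrays do not give. D-ME-iPSCs were induced pluripotent stem cells (iPSCs) made from ME cells, with donor virgin females aged 2 and 6 months, and then differentiated. D-TF-iPSCs were iPSCs made from tail-tip fibroblasts of mice aged 2 months and differentiated in the same way. Both kinds of iPSC were reprogrammed with retroviral Oct4, Sox2, Klf4 and c-Myc, and donor cells carried a β-galactosidase gene. The differentiation protocol had 2 steps, of 3 days with Matrigel in mammary growth medium and of 6 days after reseeding. The differentiated populations are cultures and ME cells are tissue isolates. Between ME cells and D-TF-iPSCs, culture, reprogramming, differentiation and cell origin cannot be told apart. Between D-ME-iPSCs and D-TF-iPSCs, cell origin cannot be told apart from donor age, from the lines used or from donor sex. The sex of the tail-tip donors is not given. Between ME cells and D-ME-iPSCs the origin is shared, but culture cannot be told apart from reprogramming and differentiation. The series calls the 3 arrays of a group biological replications without saying which animals, lines or cultures they came from, and p-values measure only the spread between these arrays. In bulk RNA, a smaller share of dividing cells and less of these transcripts per cell cannot be told apart.

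The ME arrays did not form 1 group. The array labelled ME replicate 1 correlated over all genes with the D-ME-iPSC arrays at r = 0.991 to 0.993, with ME replicate 3 at 0.943 and with ME replicate 2 at 0.920, whereas arrays within D-ME-iPSC or within D-TF-iPSC correlated at 0.994 to 0.996. Its summed level of 6 milk protein genes (the log2 of the sum of linear values) was 11.85, against 14.38 in ME replicate 2 and 14.42 in ME replicate 3, 11.84 to 11.87 in D-ME-iPSCs and 8.71 to 8.86 in D-TF-iPSCs. The profile of this array thus stood with the D-ME-iPSC arrays and went against its label, which may be wrong. Whether it is was not tested, so a mean, difference or p over all 3 ME arrays may not describe ME cells alone. The main differences and calls that use ME cells are given with and without it, whereas counts of genes or probe sets without overlap include it. Mammary markers were present in both ME cells and D-ME-iPSCs: 9 of 10 (keratins, Epcam, Cdh1, Elf5 and Trp63) were higher than in D-TF-iPSCs in each comparison, with and without that array. Of all genes, 7.5% were higher in ME cells and 6.83% in D-ME-iPSCs over all 9 arrays, and 16.4% and 15.5% without that array. The upper quartile of the probe sets was 9.28, 8.97 and 9.05 in the ME arrays and 9.12 to 9.22 in the other 6, while the median over genes lay between 7.10 and 7.15 in all 9.

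The promoters of the replication genes and of the mitosis genes differed in E2F and CHR letters, while the CCAAT box was common in both. RefSeq promoter windows (build GRCm38.p6, 250 bases before to 50 after the gene start) matched 32 of the 40 genes, with 33 windows in all. Aurkb, Ccna2, Ccnb1, Ccne2, Foxm1, Kif20a, Mcm4 and Tpx2 had none in the table used. The windows were searched on both strands for CCAAT, the box bound by NF-Y, for the CHR letters TTTGAA or TTCGAA, and for the E2F letters TTTCCCGC, TTTCGCGC, TTTGCCGC or TTTGGCGC. An E2F match was present in 6 of 14 windows of replication genes (42.9%) and in 1 of 19 windows of mitosis genes (5.26%), against 2.27% of all 32851 windows. A CHR match was present in 2 of 14 windows of replication genes (14.3%) and in 15 of 19 windows of mitosis genes (78.9%), against 19.2% of all windows. CCAAT alone was present in 9 of 14 windows of replication genes (64.3%) and in 15 of 19 windows of mitosis genes (78.9%), against 37.4% of all windows. CCAAT and CHR occurred together in 14 of the 19 windows of mitosis genes (73.7%), against 7.53% of all windows. Matches of different motifs overlapped at 1 place, a CCAAT beside an E2F match, and E2F matches overlapped each other at 2. A match describes these letters only and is not a binding site.

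Printed here, to show this difference, are the 160 bases before the gene start of 3 replication genes and 4 mitosis genes, 5′ to 3′ on the gene's strand. An E2F match lay in this stretch in 3 replication genes, all printed, and a CHR match in 6 mitosis genes, of which Kif11 and Kif2c are not printed. Capitals mark matches on either strand within the stretch, and Mcm5, Cdk1, Top2a and Mki67 had further matches outside it. Cdc6 lies at chr11:98907991-98908150 (plus strand), Mcm5 at chr8:75109349-75109508 (plus) and Mcm6 at chr1:128359706-128359865 (minus). Cdk1 lies at chr10:69352913-69353072, Cdc20 at chr4:118437344-118437503, Top2a at chr11:99024190-99024349 and Mki67 at chr7:135716380-135716539, all on the minus strand.
Cdc6: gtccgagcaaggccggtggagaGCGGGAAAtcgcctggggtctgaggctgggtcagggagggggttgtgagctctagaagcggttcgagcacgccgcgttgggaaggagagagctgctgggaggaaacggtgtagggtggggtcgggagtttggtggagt
Mcm5: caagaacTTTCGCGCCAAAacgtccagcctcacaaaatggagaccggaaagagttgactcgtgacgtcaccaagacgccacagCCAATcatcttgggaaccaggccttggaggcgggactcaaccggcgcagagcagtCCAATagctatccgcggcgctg
Mcm6: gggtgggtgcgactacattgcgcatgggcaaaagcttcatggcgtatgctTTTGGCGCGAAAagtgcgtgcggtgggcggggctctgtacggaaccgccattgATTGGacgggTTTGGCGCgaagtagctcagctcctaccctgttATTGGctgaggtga
Cdk1: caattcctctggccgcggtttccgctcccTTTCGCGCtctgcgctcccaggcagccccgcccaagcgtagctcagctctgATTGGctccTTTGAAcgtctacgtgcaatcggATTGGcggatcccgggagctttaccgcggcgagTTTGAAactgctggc
Cdc20: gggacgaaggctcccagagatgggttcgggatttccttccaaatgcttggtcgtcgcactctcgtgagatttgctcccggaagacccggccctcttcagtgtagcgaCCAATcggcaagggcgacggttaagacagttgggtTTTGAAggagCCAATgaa
Top2a: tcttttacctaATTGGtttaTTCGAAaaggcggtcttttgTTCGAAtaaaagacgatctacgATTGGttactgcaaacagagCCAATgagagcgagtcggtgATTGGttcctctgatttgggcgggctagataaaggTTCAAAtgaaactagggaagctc
Mki67: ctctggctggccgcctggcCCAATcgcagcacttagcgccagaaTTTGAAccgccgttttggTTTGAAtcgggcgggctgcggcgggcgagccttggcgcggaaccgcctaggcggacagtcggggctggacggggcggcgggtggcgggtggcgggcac
The Mcm5 and Mcm6 stretches each hold a pair of overlapping E2F words, 1 on each strand, and Cdk1 alone among these mitosis promoters carries an E2F match beside its CHR matches.

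D-ME-iPSCs carried more of nearly every gene than D-TF-iPSCs. The mean of the 39 genes was 9.48, 7.84 and 8.72 (log2) in ME arrays 1, 2 and 3, 9.32, 9.38 and 9.40 in the D-ME-iPSC arrays and 8.74, 8.71 and 8.62 in the D-TF-iPSC arrays. In 37 of 39 genes all D-ME-iPSC arrays lay above all D-TF-iPSC arrays, as they did in 25.2% of all genes. Ccne2 lay below, as did 23.2% of all genes, and E2f1 overlapped. The median log2 difference, D-ME-iPSC minus D-TF-iPSC, was 0.65 over the 39 genes (from -0.10 to 1.30) and -0.01 over all genes. In 32 genes the difference was at least 0.5, which 9.66% of all genes reached.

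The number of calls for this comparison depended on whether the ME arrays entered the estimate of the spread. With 1 mean per group and the spread of all 9 arrays (limma), Mcm4, Mcm5 and Mcm6 rose at a Benjamini-Hochberg adjusted p under 0.05, and no gene fell. These are 3 of 39 genes, against 6.83% of all genes higher and 6.45% lower. The 3 genes are thus a share close to that of all genes higher. At an unadjusted p under 0.05, 16 of the 39 passed, as did 24.8% of all genes. Without the array labelled ME replicate 1, 23 passed as higher (15.5% of all genes), and with only the 6 arrays of the pair, 37 did (20.6% of all genes), all but E2f1 and Ccne2. Without ME replicate 2 the count was 28 (9.66% of all genes). Leaving out 1 array of either culture left 0 calls. The log2 differences themselves are the same with all 9 arrays, without the array labelled ME replicate 1 and with 6 arrays, since the cultures' values do not change.

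**Figure D1:**
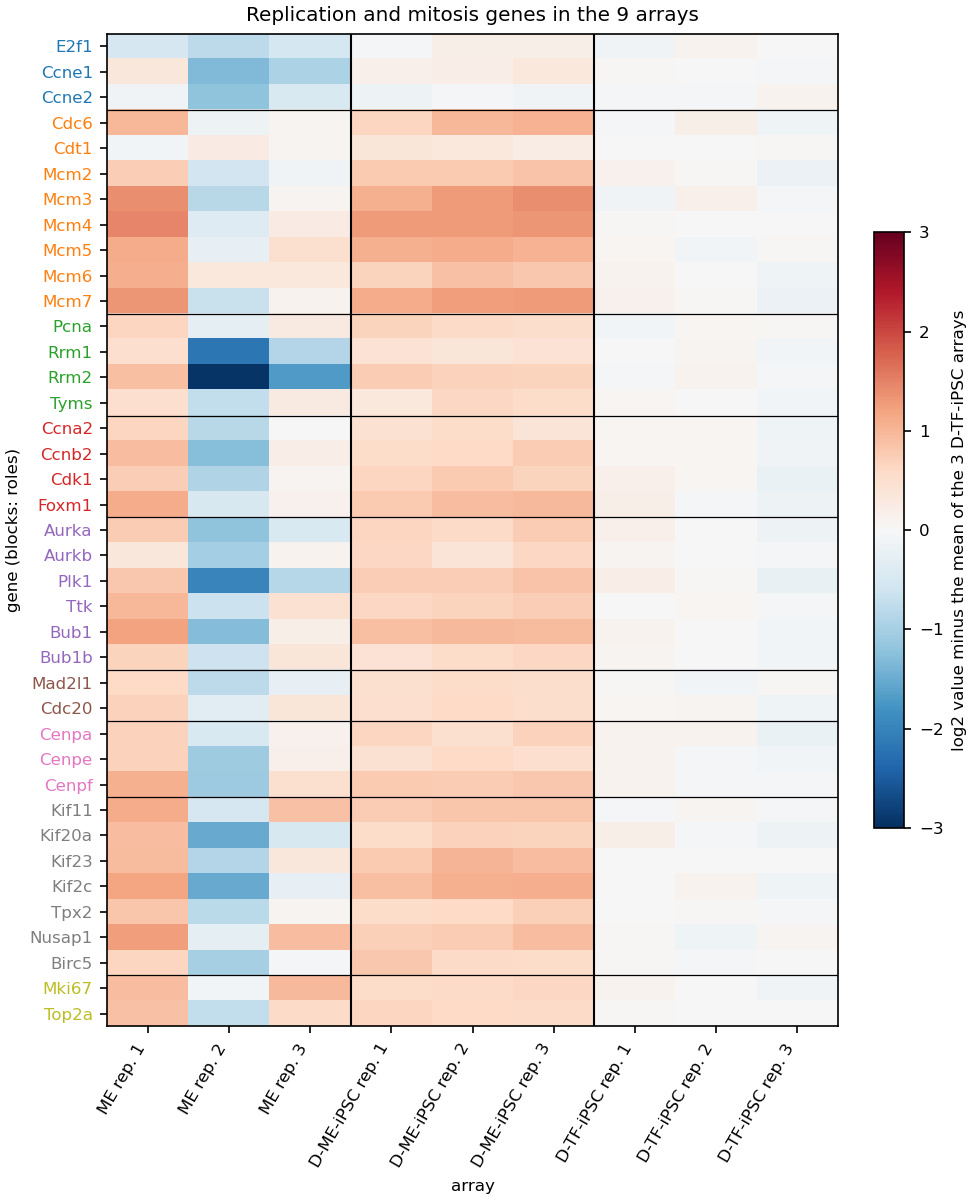
Heat map of the log2 value of each of the 39 genes in each of the 9 arrays (columns: ME, D-ME-iPSC, D-TF-iPSC, replicates 1 to 3), minus the mean of the 3 D-TF-iPSC arrays; lines separate groups and roles. The D-ME-iPSC columns are red in nearly every row, whereas the ME columns run from mostly red in replicate 1 to mostly blue in replicate 2, with Rrm2 lowest.

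The origin licensing factors and the Mcm helicase, taken as 1 role, gave the largest median difference between the cultures. Over these 8 genes the median log2 difference, D-ME-iPSC minus D-TF-iPSC, was 0.99, and all 8 had an unadjusted p under 0.05, as did 24.8% of all genes. Mcm4, a subunit of the helicase core, had values of 10.34, 8.49 and 9.13 in the ME arrays, 10.16, 10.16 and 10.20 in the D-ME-iPSC arrays and 8.92, 8.85 and 8.85 in the D-TF-iPSC arrays. The D-ME-iPSC arrays stood clear of the D-TF-iPSC arrays by more than the spread within either, and the ME arrays reached beyond both cultures. Its log2 fold change, D-ME-iPSC over D-TF-iPSC, was 1.30 (SE 0.37, limma adjusted p = 0.048). Mcm5, whose promoter is printed above, had 8.86, 7.52 and 8.23 in the ME arrays, 8.83, 8.89 and 8.81 in the D-ME-iPSC arrays and 7.81, 7.67 and 7.80 in the D-TF-iPSC arrays. It rose by 1.08 (SE 0.27, limma adjusted p = 0.029), with the groups of cultures apart. Mcm6 had 10.40, 9.62 and 9.61 in the ME arrays, 9.97, 10.18 and 10.10 in the D-ME-iPSC arrays and 9.40, 9.32 and 9.17 in the D-TF-iPSC arrays, and rose by 0.79 in D-ME-iPSCs (SE 0.20, limma adjusted p = 0.031). It was also the only gene of the 39 whose ME arrays all lay above the D-TF-iPSC arrays.

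Mcm2 and Mcm3, helicase subunits as well, had similar differences that missed the threshold. Mcm2 had 9.08, 7.75 and 8.23 in the ME arrays, 9.12, 9.12 and 9.19 in the D-ME-iPSC arrays and 8.46, 8.37 and 8.16 in the D-TF-iPSC arrays. Every ME array lay below every D-ME-iPSC array, and ME arrays lay on both sides of D-TF-iPSC. The difference D-ME-iPSC minus D-TF-iPSC was 0.81 (SE 0.28, limma adjusted p = 0.093). For Mcm3 the values were 9.40, 7.18 and 8.10 in the ME arrays, 9.08, 9.28 and 9.41 in the D-ME-iPSC arrays and 7.91, 8.16 and 7.95 in the D-TF-iPSC arrays, a difference of 1.25 between the cultures (SE 0.44, limma adjusted p = 0.11). The 3 ME arrays of Mcm3 spanned more than the distance between the cultures. Mcm7 and the loader Cdc6 had differences of 1.21 and 0.90. Cdt1, the loading factor that is degraded once S phase begins, stood out in ME cells and had 6.71, 7.04 and 6.89 in the ME arrays, 7.16, 7.12 and 7.02 in the D-ME-iPSC arrays and 6.78, 6.77 and 6.84 in the D-TF-iPSC arrays. Its ME array 2 was the highest of the ME arrays, whereas for most of the 39 genes it was the lowest. Between the cultures Cdt1 differed by only 0.30 (SE 0.11, limma adjusted p = 0.1). Of its 11 probe sets, 4 lay above without overlap and 2 below.

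The genes that start S phase differed least between the cultures. E2f1, the transcription factor that activates replication genes, had 6.61, 6.31 and 6.59 in the ME arrays, 7.05, 7.27 and 7.28 in the D-ME-iPSC arrays and 7.00, 7.21 and 7.10 in the D-TF-iPSC arrays. All ME arrays lay below both cultures, and the cultures overlapped. E2f1 fell by 0.60 in ME cells against D-TF-iPSCs (SE 0.12, limma adjusted p = 0.0097), the only one of the 39 genes to pass in that comparison, against 7.5% of all genes higher and 8.78% lower. With only the 6 arrays of the pair, E2f1 was again the 1 gene called lower (4.48% of all genes) and 0 were higher (4.1%). The call was lost with the median or the brightest probe set in place of the mean of its 11 probe sets, and without D-TF-iPSC replicate 2 (limma adjusted p = 0.053). Cyclin E1 (Ccne1), which drives entry into S phase, had 8.61, 6.96 and 7.32 in the ME arrays, 8.42, 8.48 and 8.60 in the D-ME-iPSC arrays and 8.30, 8.29 and 8.23 in the D-TF-iPSC arrays. Only ME arrays 2 and 3 lay below the cultures, which differed by 0.23 (SE 0.35, limma adjusted p = 0.81). Cyclin E2 (Ccne2) had a difference of -0.10 between the cultures.

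Nucleotide supply genes included the widest spread among the ME arrays. Rrm2, the subunit of ribonucleotide reductase whose level follows S phase, had 10.54, 6.68 and 7.93 in the ME arrays, 10.40, 10.31 and 10.29 in the D-ME-iPSC arrays and 9.60, 9.72 and 9.56 in the D-TF-iPSC arrays. ME array 1 lay with D-ME-iPSC, whereas ME arrays 2 and 3 lay below every cultured array. The difference D-ME-iPSC minus D-TF-iPSC was 0.71 (SE 0.76, limma adjusted p = 0.68), and with only those 6 arrays its SE was 0.07 and its adjusted p 6.1e-05. Rrm1, the large subunit, had a difference of 0.41. Pcna, the sliding clamp, varied less, with 12.00, 11.08 and 11.64 in the ME arrays, 12.04, 11.95 and 11.90 in the D-ME-iPSC arrays and 11.28, 11.41 and 11.41 in the D-TF-iPSC arrays. The cultures did not overlap and ME array 2 was the lowest of the 9. Tyms, thymidylate synthase, had a difference of 0.49.

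**Figure D2:**
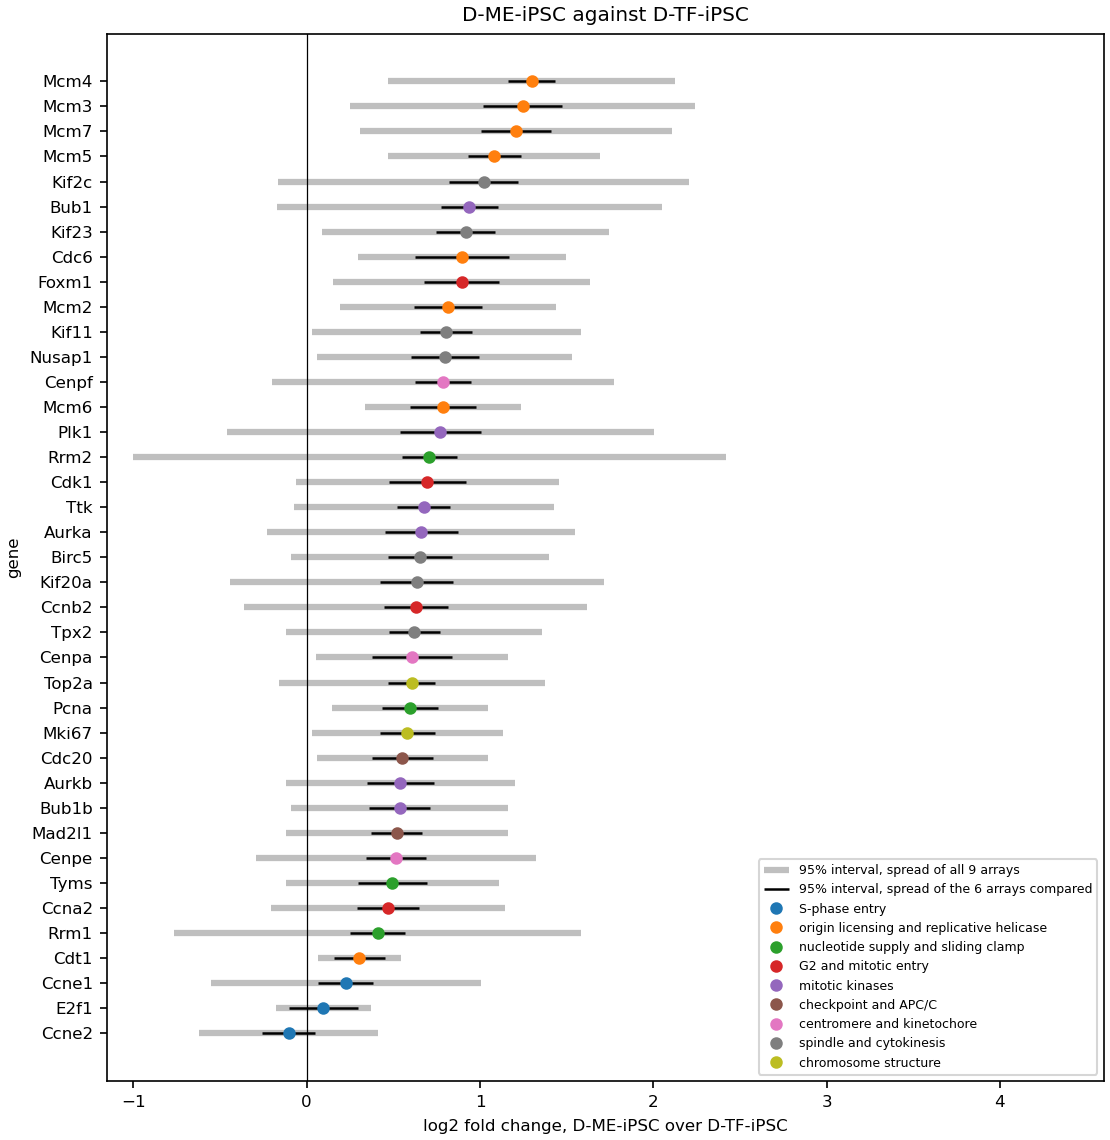
Log2 fold change of each gene, D-ME-iPSC over D-TF-iPSC (points, coloured by role), with 95% intervals from the spread of all 9 arrays (grey) and of the 6 arrays compared (black). The 4 highest points are Mcm4, Mcm3, Mcm7 and Mcm5, between 1.08 and 1.30, and the grey intervals are wider than the black ones because they contain the spread of the ME arrays.

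Genes of mitotic entry stood apart between the cultures by similar amounts, with none past the threshold over all 9 arrays. Cdk1, the kinase that triggers mitosis, had 8.56, 6.92 and 7.91 in the ME arrays, 8.45, 8.60 and 8.48 in the D-ME-iPSC arrays and 7.97, 7.87 and 7.61 in the D-TF-iPSC arrays. The cultures were apart, by 0.70 (SE 0.34, limma adjusted p = 0.25). ME array 1 lay within the D-ME-iPSC range, ME array 3 within that of D-TF-iPSC, and ME array 2 below all 6 cultured arrays. Cyclin A2 (Ccna2), which partners Cdk2 and Cdk1 in S phase and G2, had 10.73, 9.25 and 10.06 in the ME arrays, 10.54, 10.63 and 10.47 in the D-ME-iPSC arrays and 10.14, 10.14 and 9.96 in the D-TF-iPSC arrays. Cyclin B2 (Ccnb2), a partner of Cdk1, had 10.05, 7.86 and 9.33 in the ME arrays, 9.67, 9.72 and 9.88 in the D-ME-iPSC arrays and 9.18, 9.19 and 9.01 in the D-TF-iPSC arrays. For both cyclins ME array 1 was the highest of the 9, ME array 2 the lowest, and the cultures were apart. Foxm1, which activates mitosis genes, had a difference of 0.90 between the cultures.

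Among the mitotic kinases, Plk1, which acts in centrosome maturation and mitotic entry, varied most over the ME arrays. It had 9.10, 6.33 and 7.44 in the ME arrays, 9.04, 9.03 and 9.15 in the D-ME-iPSC arrays and 8.49, 8.33 and 8.08 in the D-TF-iPSC arrays. ME arrays 2 and 3 lay below all cultured arrays, and the cultures differed by 0.77 (SE 0.55, limma adjusted p = 0.47). Bub1b, the checkpoint protein BubR1, varied least in this role, with 9.36, 8.06 and 9.05 in the ME arrays, 9.11, 9.23 and 9.31 in the D-ME-iPSC arrays and 8.77, 8.67 and 8.60 in the D-TF-iPSC arrays. Its ME arrays 1 and 3 lay above D-TF-iPSC and ME array 2 below. The other 4 kinases (Aurka, Aurkb, Ttk and Bub1) had differences between the cultures of 0.54 to 0.94, and Bub1, a kinetochore kinase, had the largest of them.

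Genes of the checkpoint and the kinetochore had differences of 0.52 to 0.79 between the cultures. Mad2l1, the Mad2 protein that holds back anaphase, had 10.69, 9.29 and 9.83 in the ME arrays, 10.57, 10.64 and 10.60 in the D-ME-iPSC arrays and 10.12, 10.01 and 10.13 in the D-TF-iPSC arrays. Cdc20, the activator of the anaphase-promoting complex that Mad2 restrains, had 8.79, 7.78 and 8.45 in the ME arrays, 8.60, 8.70 and 8.63 in the D-ME-iPSC arrays and 8.14, 8.18 and 7.95 in the D-TF-iPSC arrays. The culture groups did not overlap for either, with differences of 0.52 (SE 0.28) and 0.55 (SE 0.22). Cenpa, the histone variant of centromeres, had 8.84, 7.70 and 8.29 in the ME arrays, 8.81, 8.64 and 8.85 in the D-ME-iPSC arrays and 8.26, 8.27 and 7.96 in the D-TF-iPSC arrays. Cenpf, a kinetochore protein of G2 and mitosis, had 9.61, 7.45 and 9.03 in the ME arrays, 9.34, 9.30 and 9.36 in the D-ME-iPSC arrays and 8.66, 8.50 and 8.48 in the D-TF-iPSC arrays. In Cenpf, ME array 3 lay between the cultures, below D-ME-iPSC and above D-TF-iPSC. Cenpe, the kinetochore motor, had a difference of 0.52 between the cultures.

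Spindle and cytokinesis genes had a median difference of 0.80 between the cultures. Kif2c, a kinesin that takes microtubules apart at centromeres, had 9.10, 6.40 and 7.66 in the ME arrays, 8.81, 8.97 and 9.01 in the D-ME-iPSC arrays and 7.93, 8.02 and 7.78 in the D-TF-iPSC arrays. Its difference of 1.02 between the cultures (SE 0.53, limma adjusted p = 0.28) was the largest of the mitosis genes, and ME arrays 2 and 3 lay below every cultured array. Nusap1, a microtubule-associated spindle protein, had 9.58, 8.05 and 9.26 in the ME arrays, 9.04, 9.09 and 9.25 in the D-ME-iPSC arrays and 8.37, 8.19 and 8.42 in the D-TF-iPSC arrays. Here ME arrays 1 and 3 lay above all 3 D-ME-iPSC arrays. Kif11 (the bipolar spindle kinesin Eg5), Kif20a and Kif23 (kinesins of cytokinesis), Tpx2 (an activator of Aurora A) and Birc5 (survivin) had differences of 0.62 to 0.92.

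The proliferation marker Mki67, which coats mitotic chromosomes, was 1 of 3 genes, with Nusap1 and Kif11, whose ME arrays 1 and 3 lay above every D-ME-iPSC array. It had 10.28, 9.27 and 10.32 in the ME arrays, 9.91, 9.93 and 9.97 in the D-ME-iPSC arrays and 9.45, 9.35 and 9.26 in the D-TF-iPSC arrays. ME array 2 lay within the D-TF-iPSC range. Top2a, the topoisomerase that untangles sister chromatids, had 11.07, 9.45 and 10.77 in the ME arrays, 10.85, 10.80 and 10.77 in the D-ME-iPSC arrays and 10.23, 10.19 and 10.19 in the D-TF-iPSC arrays. ME array 3 lay just below the D-ME-iPSC arrays for Top2a and ME array 2 below all 6 cultured arrays. The differences between the cultures were 0.58 for Mki67 (SE 0.24, limma adjusted p = 0.18) and 0.61 for Top2a (SE 0.34, limma adjusted p = 0.33).

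Set against D-ME-iPSCs one by one, the ME arrays gave 3 different pictures. The array labelled ME replicate 1 lay above all D-ME-iPSC arrays in 23 of 39 genes (32.8% of all genes), within them in 12 and below in 4 (31.1%), with a median difference of 0.14. ME replicate 2 lay below all D-ME-iPSC arrays in 38 of 39 genes (37.1% of all genes), with a median of -1.39, reaching -3.65 in Rrm2. Only Cdt1 lay within their range and 0 genes above (47% of all genes). ME replicate 3 lay below in 36 of 39 genes (40.2% of all genes) with a median of -0.58, and above in Mki67, Nusap1 and Kif11 (35.7% of all genes).

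The distance of ME replicate 3 from D-ME-iPSC was unequal over the roles. Its median difference was -0.82 over the 15 replication genes and -0.48 over the 24 mitosis genes, against -1.32 and -1.49 in ME replicate 2. By role it ranged from -0.87 in origin licensing and helicase genes to -0.36 in centromere and kinetochore genes, and was 0.18 over Mki67 and Top2a. No test was made of a difference within 1 array.

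**Figure D3:**
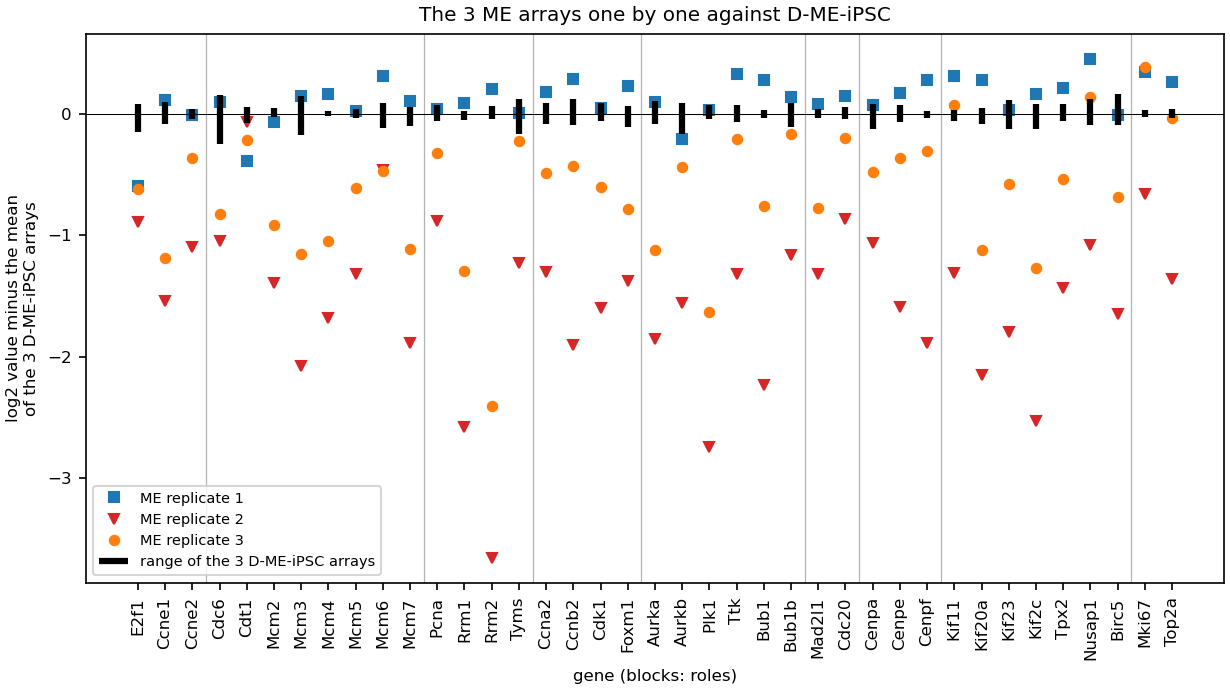
Log2 value of each gene in ME replicates 1 (squares), 2 (triangles) and 3 (circles) minus the mean of the 3 D-ME-iPSC arrays, whose range is the black bar; vertical lines separate roles. Replicate 1 stays near 0, replicate 2 lies lowest in most genes, down to -3.65 in Rrm2, and replicate 3 lies in between, above the bar in Mki67, Nusap1 and Kif11.

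Against D-TF-iPSCs the same arrays fell on opposite sides. The array labelled ME replicate 1 lay above all D-TF-iPSC arrays in 36 of 39 genes (36.6% of all genes) and below in 3 (42.4%), with a median difference of 0.84. ME replicate 2 lay below them in 36 (37% of all genes) and above in 2 (47.8%), with a median of -0.80, and ME replicate 3 above in 21 (36.4%) and below in 10 (40.8%), with a median of 0.10. Over the 3 arrays, 1 gene (Mcm6) lay above D-TF-iPSC without overlap (14.4% of all genes) and 2 (E2f1 and Ccne2) below (14.9%). The median log2 difference, ME minus D-TF-iPSC, was 0.04 over the 39 genes and 0.01 over all genes. Without the array labelled ME replicate 1 it was -0.34, and limma called 1 of 39 genes higher (Mcm6, 16.4% of all genes) and 10 lower (22.8% of all genes). The 10 lower genes are thus a share close to that of all genes, and the 1 higher gene is a smaller share. The 10 were the 3 S-phase entry genes, Rrm1, Rrm2, Aurka, Plk1, Mad2l1, Kif20a and Kif2c. Rrm2 changed most, with a log2 difference of -2.32 (SE 0.28, limma adjusted p = 0.00013). Without ME replicate 2 the picture turned, with 11 of the 39 genes called higher (7.93% of all genes).

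Between ME cells and D-ME-iPSCs, limma called 0 of the 39 genes at an adjusted p under 0.05, as it did 0 of all 20422 genes (0%), while 15 of the 39 and 3857 of all genes (18.9%) had an unadjusted p under 0.05. E2f1, Mcm2 and Aurkb lay below without overlap (5.96% of all genes), and none lay above (8.11%). The median log2 difference, ME minus D-ME-iPSC, was -0.64 over the 39 genes and 0.01 over all genes. Without the array labelled ME replicate 1, limma called 34 of the 39 lower, against 23.6% of all genes, and the median was -1.0. The lowest values then were those of Rrm2 at -3.03 (SE 0.28, limma adjusted p = 3.8e-05), Plk1 at -2.19 (SE 0.26, limma adjusted p = 0.00018) and Rrm1 at -1.94 (SE 0.28, limma adjusted p = 0.00059). The 5 that did not pass were Cdt1, Kif11, Nusap1, Mki67 and Top2a. These calls rest on 2 ME arrays, which differed from each other.

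Other lists moved over the same arrays as the replication and mitosis genes. The summed level of 6 milk protein genes, given above, was high in ME replicates 2 and 3. In both arrays most of the 39 genes lay below every D-ME-iPSC array. ME replicate 3 lay above all D-TF-iPSC arrays in 21 of the 39 genes, however, and below in 10. Csn1s2a alone had 7.26, 12.46 and 12.41 in the ME arrays, 6.43 to 6.75 in D-ME-iPSCs and 4.71 to 5.11 in D-TF-iPSCs. Immediate early genes, which also respond to tissue dissociation, summed to 12.60, 13.38 and 13.54 in the ME arrays, 12.71 to 12.74 in D-ME-iPSCs and 11.47 to 11.56 in D-TF-iPSCs, with 8 of 10 higher in D-ME-iPSCs against D-TF-iPSCs. Fibroblast markers summed to 12.95, 13.23 and 13.58 in the ME arrays, 12.95 to 13.00 in D-ME-iPSCs and 14.06 to 14.14 in D-TF-iPSCs, with 6 of 10 lower in D-ME-iPSCs. The higher sums of ME arrays 2 and 3 lay in Dcn, at 11.21, 12.40 and 12.66 in the ME arrays, and Lum, at 9.02, 10.30 and 10.83, while 7 of the 10 markers were lower in ME array 2 than in ME array 1 and the list's median was 9.14, 8.55 and 9.00. Macrophage and lymphocyte markers summed to 10.82, 12.00 and 11.07 in the ME arrays, 10.68 to 10.79 in D-ME-iPSCs and 12.21 to 12.51 in D-TF-iPSCs, with 3 of 9 lower and 1 higher in D-ME-iPSCs. Endothelial markers summed to 11.38, 10.29 and 10.32 in the ME arrays, 11.26 to 11.32 in D-ME-iPSCs and 11.47 to 11.55 in D-TF-iPSCs, with 0 of 7 called between the cultures. In the same fit over all 9 arrays, 6.83% of all genes were higher and 6.45% lower in D-ME-iPSCs against D-TF-iPSCs. Log2 values of an array have no true zero, so none of these markers was at 0, and the part of these cells or of handling in the results was not tested. Adipocyte and pluripotency markers had 0 calls among 6 and 8 genes in each comparison over all 9 arrays. With that labelled ME replicate 1 left out, 1 adipocyte marker was higher and 1 lower in ME cells against D-TF-iPSCs, 2 were higher against D-ME-iPSCs, and 1 was lower in D-ME-iPSCs against D-TF-iPSCs. For pluripotency markers these counts were 1 higher, 3 higher and 0, and their gene values lay between 4.99 and 7.25 over the 9 arrays. In that fit 16.4% of all genes were higher and 22.8% lower in ME cells against D-TF-iPSCs. Against D-ME-iPSCs, 15.1% were higher and 23.6% lower. In D-ME-iPSCs against D-TF-iPSCs the same fit called 9 of 10 immediate early genes higher, 8 of 10 fibroblast markers lower and 1 higher, 5 of 9 macrophage and lymphocyte markers lower and 1 higher, and 2 of 7 endothelial markers lower. Of all genes, 15.5% were higher and 12.8% lower there.

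The difference between the cultures was spread over the probe sets, which measure stretches of single exons. In 442 of 593 probe sets (74.5%) all D-ME-iPSC arrays lay above all D-TF-iPSC arrays, as in 19.4% of all probe sets, and in 8 (1.35%) below, as in 16.6%. All 16 probe sets of Mcm4 lay above, and 22 of 25 of Bub1, 31 of 40 of Top2a and 12 of 16 of Mki67. E2f1 had 1 of 11 above and 1 below. Between ME cells and D-ME-iPSCs, 61 of the 593 lay below without overlap (10.3%), against 6.91% of all probe sets, and 3 above (0.506%), against 7.03%.

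**Figure D4:**
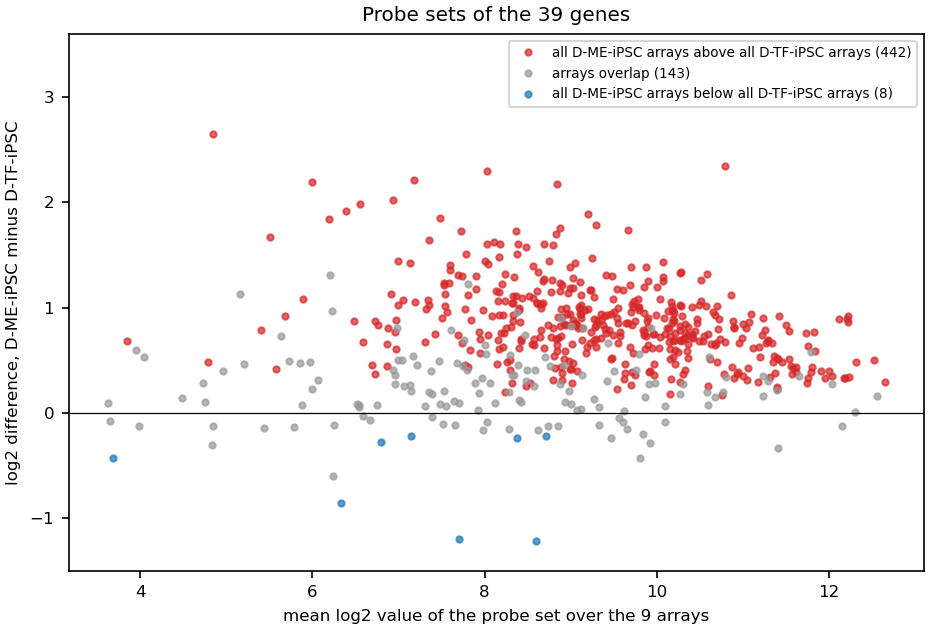
Each point is 1 of the 593 probe sets of the 39 genes: its mean log2 value over the 9 arrays against its log2 difference, D-ME-iPSC minus D-TF-iPSC. The 442 red points, whose D-ME-iPSC arrays all lie above the D-TF-iPSC arrays, occur over the whole range of signal, and 8 blue points lie below.

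Further genes of the same pathways, taken from wider lists, followed a like pattern between the cultures. Of 44 other DNA replication genes, 13 rose and 0 fell in D-ME-iPSCs against D-TF-iPSCs (limma adjusted p under 0.05), with a median log2 difference of 0.59, and 41 were positive. Ticrr, which helps fire origins, had the largest, at 1.29 (SE 0.34, limma adjusted p = 0.035), followed by Gmnn, the inhibitor of Cdt1, at 1.18 (SE 0.42, limma adjusted p = 0.11). Orc3 and Orc5, subunits of the origin recognition complex, lay at the other end, at -0.28 and -0.13. Of 59 other mitosis genes, 4 rose and 0 fell, with a median of 0.68, and 58 were positive. In the same fit 6.83% of all genes rose and 6.45% fell. The 4 mitosis genes that rose are thus no larger a share than that of all genes. Ube2c, the ubiquitin-conjugating enzyme of the anaphase-promoting complex, rose by 1.30 (SE 0.33, limma adjusted p = 0.03). Ect2, which directs the cleavage furrow, had 1.18 (SE 0.52, limma adjusted p = 0.2), whereas Kifc1 and Spc25 had -0.06 and 0.10. In the fit without ME replicate 1, 30 replication genes and 36 mitosis genes were called higher (15.5% of all genes), and 1 and 0 lower (12.8%). With only the 6 cultured arrays, 33 and 53 were called higher (20.6% of all genes), and 1 and 0 lower (17.6%).

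Regulators and the anaphase-promoting complex (APC/C) itself had smaller median differences between the cultures. Of 18 E2F, Rb and MuvB regulators, 1 rose and 0 fell, against 6.83% of all genes higher and 6.45% lower, with a median log2 difference of 0.30. E2f8, a repressor among the E2F factors, and Lin9, a MuvB subunit, had the largest, at 1.16 and 0.97. Neither passed (limma adjusted p = 0.054 and 0.071). Lin52 and Rbl2 had -0.47 and -0.23. Of 13 APC/C subunits and activators, 1 rose (Fzr1, the G1 activator, by 0.34, SE 0.09, limma adjusted p = 0.043) and 0 fell, with a median of -0.13. Cdc16 and Anapc10 had the lowest values, -0.46 and -0.39, and Anapc7 had 0.26. The fit without ME replicate 1 had 8 regulators that rose and 0 that fell, and 1 APC/C gene that rose and 2 that fell, Cdc16 and Anapc10 (limma adjusted p = 0.046 and 0.021). In that fit 15.5% of all genes rose and 12.8% fell.

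**Figure D5:**
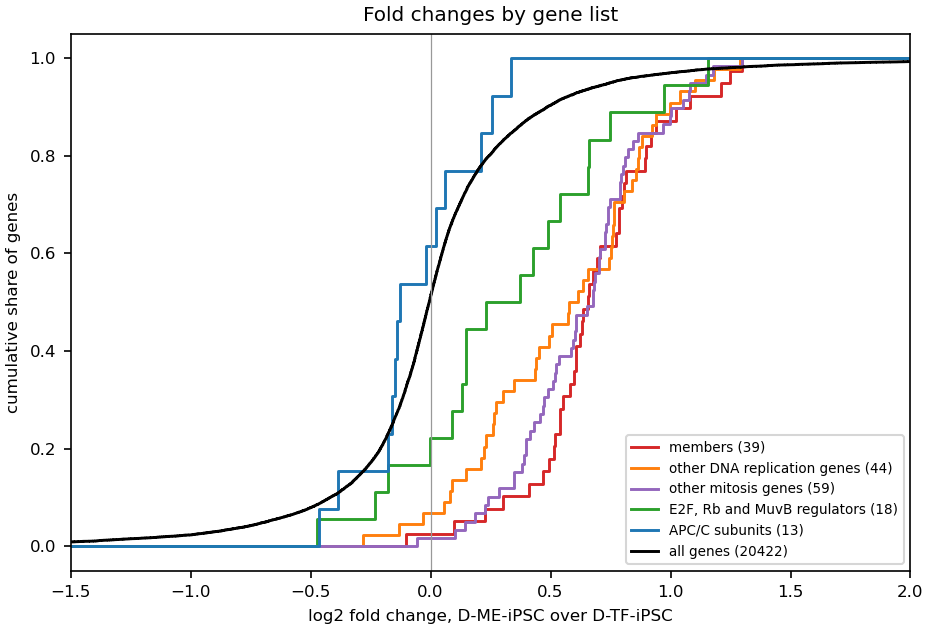
Cumulative share of genes by log2 fold change, D-ME-iPSC over D-TF-iPSC, for the 39 genes, 4 pathway lists and all 20422 genes. The 39 genes (median 0.65), other mitosis genes (0.68) and other replication genes (0.59) lie right of all genes (-0.01), regulators (0.30) in between, and APC/C subunits (-0.13) beside all genes.

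Wee1 and Rb1 moved in ME cells in another way than most of the 39 genes. Wee1, the kinase that holds Cdk1 inactive, had 10.07, 10.95 and 10.92 in the ME arrays, 9.97, 9.90 and 9.99 in the D-ME-iPSC arrays and 8.74, 8.86 and 8.82 in the D-TF-iPSC arrays. It rose by 1.84 in ME cells against D-TF-iPSCs (SE 0.21, limma adjusted p = 5e-04), and its ME arrays lay above both cultures. Rb1, the retinoblastoma protein that restrains E2F, had 9.91, 10.66 and 10.32 in the ME arrays, 9.69, 9.58 and 9.64 in the D-ME-iPSC arrays and 9.20, 9.16 and 9.27 in the D-TF-iPSC arrays. It rose by 1.08 in ME cells against D-TF-iPSCs (SE 0.17, limma adjusted p = 0.0026), with no overlap with either culture. Both were highest in ME replicate 2, the array in which most of the 39 genes were lowest. The MuvB subunit Lin54 rose as well, by 0.61 (limma adjusted p = 0.0045), as did the replication genes Prim1, a primase subunit, by 0.96 (limma adjusted p = 0.00024) and Lig1, which joins Okazaki fragments, by 0.75 (limma adjusted p = 0.0076). Kif15, a spindle kinesin, had 0.73 (limma adjusted p = 0.12). In Lin54, Prim1, Lig1 and Kif15, ME array 2 was the lowest ME array, as in most of the 39 genes. Without the array labelled ME replicate 1, the differences were 2.13 in Wee1, 1.28 in Rb1, 0.57 in Lin54, 0.90 in Prim1 and 0.63 in Lig1. All of these passed (limma adjusted p under 0.05), and Kif15 at 0.48 did not (limma adjusted p = 0.16).

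At the low end in ME cells against D-TF-iPSCs, Anapc10 of the APC/C fell by 0.80 (limma adjusted p = 0.026). The call was lost with only the 6 arrays of the pair (limma adjusted p = 0.084), where 0 of the 13 APC/C genes passed, and without the array labelled ME replicate 1 the difference was -1.05 (limma adjusted p = 8.4e-05). Rpa3 and Gins4 of the replication fork had -0.86 and -0.71, Nuf2 and Bub3 of the kinetochore and checkpoint had -0.64 and -0.54, E2f6 and Lin52 had -0.85 and -0.49, and Cdc23 had -0.84, all with limma adjusted p above the threshold. All 7 passed without the array labelled ME replicate 1, with Rpa3 at -1.49 (limma adjusted p = 4e-04), Gins4 at -1.19 (8.4e-06), Nuf2 at -1.32 (0.02), Bub3 at -0.90 (0.00016), E2f6 at -1.31 (5.5e-06), Lin52 at -0.83 (0.016) and Cdc23 at -1.24 (9.3e-05). Anapc7 and Anapc13 had the highest values of the APC/C genes, 0.20 and 0.18. In all, 5 of 44 replication genes, 2 of 59 mitosis genes and 3 of 18 regulators rose and none of these fell, and of the 13 APC/C genes 0 rose and 2 fell. In the same fit over all 9 arrays, 7.5% of all genes rose and 8.78% fell. The 2 mitosis genes that rose are a smaller share of 59 than that of all genes higher. Without the array labelled ME replicate 1, 6 replication genes rose and 16 fell, 3 mitosis genes rose and 8 fell, 3 regulators rose and 7 fell, and 0 APC/C genes rose and 7 fell, against 16.4% of all genes higher and 22.8% lower. The 8 mitosis genes that fell are a smaller share of 59 than that of all genes lower.

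Against D-ME-iPSCs no pathway gene was called over all 9 arrays. Orc1, the ATPase of the origin recognition complex, had a log2 difference of -1.37 (ME minus D-ME-iPSC) and Rpa3, a subunit of the single-strand binding protein, -1.12. Anln, an actin-binding protein of the cleavage furrow, had -1.21, Nuf2 -1.13, E2f7 -0.87, E2f6 -0.85, Cdc23 -0.70 and Anapc4 -0.60. At the other end Wee1 had 0.70, Rb1 0.66, Cdc27 0.33, Cdc7, the kinase that fires origins, 0.32, the condensin subunit Smc4 0.28, Cdc26 0.21, the E2F partner Tfdp2 0.19 and Orc4 0.04. Without the array labelled ME replicate 1, 33 of 44 replication genes were lower and 0 higher, 44 of 59 mitosis genes were lower and 1 higher, 9 of 18 regulators were lower and 1 higher, and 8 of 13 APC/C genes were lower and 1 higher, against 23.6% of all genes lower and 15.1% higher. Wee1 at 0.98 (limma adjusted p = 2.7e-05), Rb1 at 0.85 (limma adjusted p = 0.00029) and Cdc27 at 0.37 (limma adjusted p = 0.0087) were the higher ones. Orc1 fell by 2.20 (limma adjusted p = 3.2e-06), and Rpa3, Anln, Nuf2, E2f7, E2f6, Cdc23 and Anapc4 passed as lower as well, with differences of -1.88 in Anln to -1.0 in Anapc4.

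The profile shared by the 39 genes was described by their mean in each array. Over the 9 arrays, which share groups and are therefore not 9 independent points, a gene's Pearson r with that mean had a median of 0.96, and 28 of 39 genes exceeded 0.9, each gene being itself part of the mean. Cdt1 had the lowest r, 0.12, followed by E2f1 with 0.54 and Mki67 with 0.68. Outside the 39, among 5484 genes with a range of at least 1 over the arrays, the 10 most alike were Nt5e (r = 0.996), Cit, Spon2, Lsm8, Aspm, Sgo1, Pbk, Smc2, Ppp2r5d and Cep55 (r = 0.991). Nt5e encodes the surface enzyme CD73. Nt5e had 10.45, 8.00 and 9.44 in the ME arrays, 10.45, 10.40 and 10.51 in the D-ME-iPSC arrays and 9.43, 9.36 and 9.10 in the D-TF-iPSC arrays. Its ME array 2 was the lowest of the 9 and the cultures did not overlap.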

How the data were processed

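RNA of 9 samples was hybridised to Affymetrix Mouse Gene 1.0 ST arrays. The authors deposited RMA-normalised log2 values of 241576 exon-level probe sets, processed with Partek; the sources used here give neither tool versions nor a genome build. Scanner files were not used here, so background level and dim probe sets could not be judged. Probe sets naming exactly 1 gene (212138) were averaged into 20422 genes (median 8 probe sets per gene), 2669 symbols being updated through RefSeq synonyms, and 4672 probe sets naming several genes and 24766 naming none were left out. Groups were compared with limma 3.58.1 (R 4.3.3), 1 mean per group over all 9 arrays, and p-values were Benjamini-Hochberg adjusted over all genes. The methods name Student's test, run as an alternative. Alternatives changed normalisation, probe set summary, filter, spread, arrays fitted, weights and pairing. The fit was also run on simulated data in which all 9 arrays shared 1 spread per gene. Such data cannot show how the fit acts where ME arrays spread more than the cultures, as they do here.

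The genes, roles and lists were chosen with earlier results of these data known. Values per array are given for the genes with the widest and narrowest range over ME arrays in each role and for Mki67, Top2a, Cdk1, Pcna and Mcm2. Mcm4, Mcm5 and Mcm6 are given as they passed the test, and Wee1, Rb1 and Nt5e were set out per array after their values were seen. From each pathway list, the 2 largest folds each way per comparison are named. The number of arrays limits the precision.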

Additional observations from a re-analysis of the deposited data

How the results depend on the processing

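Counts of the 39 genes past the threshold depended on how the ME arrays entered the spread; the cause was not tested. For ME cells against D-TF-iPSCs, 0 genes were higher (7.5% of all genes), 1 after quantile normalisation (8.42%) and 14 with array weights (27.5%), and 0 to 11 with 1 array left out (11 without ME replicate 2, 7.93%). The 1 lower gene (8.78% of all genes) became 0 with the median of probe sets (6.46%), the brightest probe set (6.24%), only genes above the median level, which left E2f1 out, (14.1% of 10211 genes) or the methods' t-test after adjustment (1.53%), 9 with array weights (32.6%), and 0 to 10 with 1 array left out. For D-ME-iPSCs against D-TF-iPSCs, the 3 higher genes (6.83% of all genes) became 5 after quantile normalisation (6.68%), 1 with the brightest probe set (3.97%), 37 with only the 6 arrays compared (20.6%), 36 with array weights (21.3%), 36 by the methods' t-test after adjustment (16.9%) and 37 before (21.9%), and 0 to 28 with 1 array left out (23 without ME replicate 1, 15.5%, and 28 without ME replicate 2, 9.66%). For ME cells against D-ME-iPSCs, array weights gave 1 higher (26.4% of all genes) and 34 lower (32.7%), the methods' t-test before adjustment gave 1 lower (2.19%), and leaving out 1 array gave 0 to 34 lower (34 without ME replicate 1, 23.6%). Array weights put ME replicate 3 at 8.98, ME replicate 1 at 0.0658 and ME replicate 2 at 0.142. No called value changed direction under any alternative run. The replicate number as a block left the counts at 0 higher and 1 lower, 3 higher and 0 lower, and 0 and 0. Over 9 pairs of arrays with the same number, deviations correlated at -0.18 to 0.16, and over pairs with different numbers at -0.17 to 0.17. With 3 arrays per group, these correlations cannot decide whether the numbers pair the samples.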
